A study of Ictidomys tridecemlineatus with 5 samples.

Results

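RBM3 and CIRBP are small RNA-binding proteins, and they stand here beside 4 proteins linked to cold or heat responses, in RNA sequencing of whole eye and of isolated retina from the thirteen-lined ground squirrel, Ictidomys tridecemlineatus. The listed members were RBM3, CIRBP, YBOX1, YBOX3, RTN3 and HSF1, and a member's transcripts were those whose best Swiss-Prot hit carried its entry name. This found 5 of the 6 members in both tissues, out of 13949 protein names present in both. They took 33 of the 61797 annotated eye transcripts and 48 of the 62889 annotated retina transcripts. YBOX3 had no transcript under that entry name in eye or retina.

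The eye group comprised 2 libraries and the retina group 3 libraries, all labelled wild type, and the labels state that RNA of 4 squirrels was pooled for library preparation. For each tissue a single value per assembled transcript was deposited, so no difference between eye and retina below has a replicate check or a p-value. The labels used here give neither season, body temperature nor torpor state, and no cold-exposed group is compared. Levels are taken to be RPKM, reads scaled by transcript length and by sequencing depth. Under that reading, recovered reads summed to 19.2 times the scaling total in eye and 10.5 times in retina. Reads may therefore be counted on several transcripts, which limits comparison of levels between genes and between tissues. Whole eye contains retina together with lens, cornea, muscle and other tissues. In such bulk RNA, fewer cells of a type and less RNA per cell cannot be told apart.

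RBM3 and CIRBP each have an RNA recognition motif followed by a glycine-rich tail, and mild cooling raises both in cultured mammalian cells. They bind messenger RNA and act on its stability, its polyadenylation and its translation. YBOX1 and YBOX3 are Y-box proteins whose cold-shock domain is named for its resemblance to bacterial cold-shock proteins. They coat messenger RNA in the cytoplasm. RTN3 is a reticulon, a membrane protein that shapes the endoplasmic reticulum, and in mouse brain RBM3 promotes its translation during cooling. HSF1 is the main transcription factor of the heat shock response. RTN3 and HSF1 are thus not RNA-binding proteins of the cold-inducible kind, and the 6 names form a set by their link to temperature responses only.

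**Figure D1:**
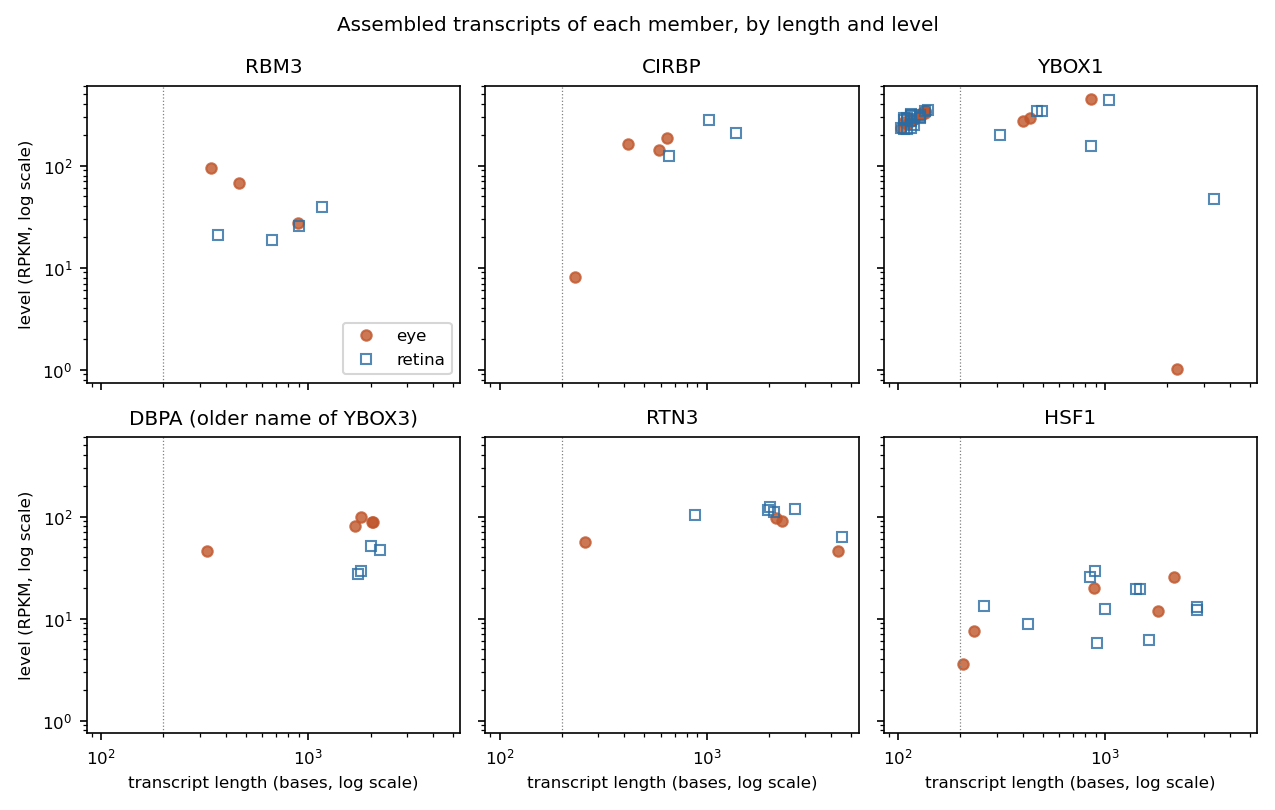
Each point is an assembled transcript, with its length in bases on the horizontal log axis and its level in RPKM on the vertical log axis, for whole eye (filled circles) and retina (open squares). The dotted line marks 200 bases. The 2 highest RBM3 transcripts of eye are 341 and 465 bases long and lie above all 4 of retina, while the third, of 891 bases, lies beside the retina transcript of 903 bases.

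RBM3 was the member with the widest difference by the highest transcript, and the size of that difference rested on which transcripts were set side by side. The eye table held 3 RBM3 transcripts, at 94.9 RPKM (341 bases), 67.6 RPKM (465 bases) and 27.5 RPKM (891 bases). The retina table held 4, at 39.1 RPKM (1163 bases), 25.6 RPKM (903 bases), 20.7 RPKM (366 bases) and 18.5 RPKM (671 bases). The 2 shorter eye transcripts thus stood above every retina transcript, and the longest eye transcript lay inside the retina range.

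The level of a gene is taken below as that of its highest transcript, and a difference as log2(eye RPKM + 1) minus log2(retina RPKM + 1). By this measure RBM3 stood at 94.9 RPKM in eye and 39.1 RPKM in retina, a difference of 1.26 with a 95% counting interval of 1.22 to 1.30. The plain ratio of the 2 levels was 2.43. Counting intervals here cover counting error only and treat reads as independent. They rest on 8551 reads in eye and 16170 in retina, recovered from the deposited values.

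A protein is called where its difference of log2(RPKM + 1) was 1 or more in either direction, termed 2-fold here and below. At low levels the added 1 can keep a plain ratio above 2 from being called. RBM3 was the single called member among the 5 found. Over all 13383 proteins compared, 15.4% were called, 11.8% as higher in eye and 3.6% as lower in eye. A share of 1 in 5 members is near that background. With retina rescaled to the summed level of eye, called equal totals below, the median over all proteins moved from -0.0035 to -0.30, the called proteins split into 1176 higher and 1092 lower in eye instead of 1577 and 482, and RBM3 differed by 0.93. Only 31.4% of all proteins were then higher in eye, and the equal-total counts of the lists below stand beside that share.

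A closer comparison was possible for transcripts with the same Swiss-Prot entry, alignment score, aligned residues and positives in both tables. RBM3 had 1 such alignment, over 74 residues of the mouse protein. Its transcripts stood at 27.5 RPKM in eye (891 bases) and 25.6 RPKM in retina (903 bases), a difference of 0.10 with an interval of 0.056 to 0.15. The like-for-like transcripts of RBM3 were therefore nearly level, and the 2-fold call came from the eye transcript of 341 bases.

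The longest RBM3 transcripts gave the opposite direction, at 27.5 RPKM in eye and 39.1 RPKM in retina, a difference of -0.49. The transcripts that best matched the Swiss-Prot protein were at 67.6 RPKM in eye and 39.1 RPKM in retina, a difference of 0.78. The eye transcript of 465 bases had its hit in the rat entry at 84% similarity over 106 residues. The other RBM3 transcripts of both tissues hit the mouse entry at 98% to 100% similarity.

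CIRBP, the protein that gives the group its name, was lower in whole eye than in retina. The eye transcripts stood at 188 RPKM (642 bases), 161 RPKM (417 bases), 144 RPKM (591 bases) and 8.09 RPKM (232 bases). The retina transcripts stood at 283 RPKM (1025 bases), 207 RPKM (1380 bases) and 123 RPKM (660 bases). The 2 highest retina transcripts lay above all 4 eye transcripts, and the lowest, which matched at only 54% similarity, lay among them.

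The difference of CIRBP by the highest transcript was -0.59, with a counting interval of -0.60 to -0.57, which is short of 2-fold. On its alignment shared by both tables, 88 of 88 residues of the human protein, CIRBP stood at 144 RPKM in eye and 283 RPKM in retina, a difference of -0.97. A second retina transcript carried the same alignment at 207 RPKM, and against it the difference was -0.52. CIRBP was lower in eye under each of the 15 alternatives tried, and none reached 2-fold. Several of these, such as the filters on length, level and E-value, kept the same highest transcripts and left the difference at -0.59. They add no separate check of the direction.

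Levels of RBM3 and CIRBP were ordered alike in both tissues, with CIRBP above RBM3. The ratio of CIRBP to RBM3 by the highest transcript was 1.98 in eye (counting interval 1.94 to 2.03) and 7.24 in retina (7.12 to 7.36). With the longest transcripts the ratio was 6.83 in eye and 5.29 in retina, so the order of the tissues turned with the transcripts chosen. With transcripts summed it was 2.64 in eye and 5.90 in retina.

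YBOX1, which packages and stabilises messenger RNA, had the highest level of the members in both tissues by the highest transcript. Its highest transcript was at 446 RPKM in eye (853 bases) and 437 RPKM in retina (1047 bases), a difference of 0.029 with a counting interval of 0.018 to 0.040. These transcripts matched the rat entry at only 62% similarity over 148 residues in eye and 56% over 206 residues in retina. Some shorter YBOX1 transcripts of both tissues matched at 100%. The level, rank and direction of YBOX1 by the highest transcript rest on these weaker matches. YBOX1 had 17 transcripts in eye and 24 in retina, of which 13 and 18 were under 200 bases. It was the only member found under its name with transcripts under 200 bases.

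These short YBOX1 transcripts ranged between 235 and 342 RPKM in eye and between 229 and 350 RPKM in retina, so that the tissues overlapped almost completely. On the 3 alignments shared by both tables YBOX1 differed by -0.12 to -0.051. The shared alignment over 44 residues of the chicken entry stood at 331 RPKM in eye and 343 RPKM in retina, and that over 38 residues of the bovine entry at 280 RPKM in eye and 304 RPKM in retina. On these shared alignments eye was slightly below retina. The best-matching transcripts stood at 291 RPKM in eye and 437 RPKM in retina, a difference of -0.59, and sums over transcripts differed by -0.46. The longest transcripts were far lower, at 1.01 RPKM in eye (2219 bases) and 47.6 RPKM in retina (3342 bases). The longest eye transcript matched the chicken entry at only 52% similarity over 101 residues. Y-box proteins share their cold-shock domain, so short YBOX1 transcripts may be shared with close relatives.

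YBOX3 is a Y-box protein that can repress translation. An older Swiss-Prot name of the same protein is DBPA, DNA-binding protein A, and this entry was looked up after the values had been seen, so it is kept out of the counts of members. DBPA had 5 transcripts in eye, at 97.9, 88.9, 88.4, 80.4 and 46.4 RPKM. In retina it had 4, at 51.5, 46.8, 29.3 and 27.3 RPKM. Of the eye transcripts 4 lay above every retina transcript, and the fifth, of 326 bases, lay inside the retina range.

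By the highest transcript DBPA differed by 0.91, with a counting interval of 0.89 to 0.93, just under the 2-fold mark. Its shared alignment, over 288 residues of the rat entry, was carried by transcripts of 2029 bases in eye and 2012 bases in retina, at 88.9 RPKM in eye and 51.5 RPKM in retina. That difference was 0.78, so DBPA was higher in eye also on like-for-like transcripts of similar length. YBOX1 exceeded DBPA 4.55-fold in eye and 8.47-fold in retina.

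**Figure D2:**
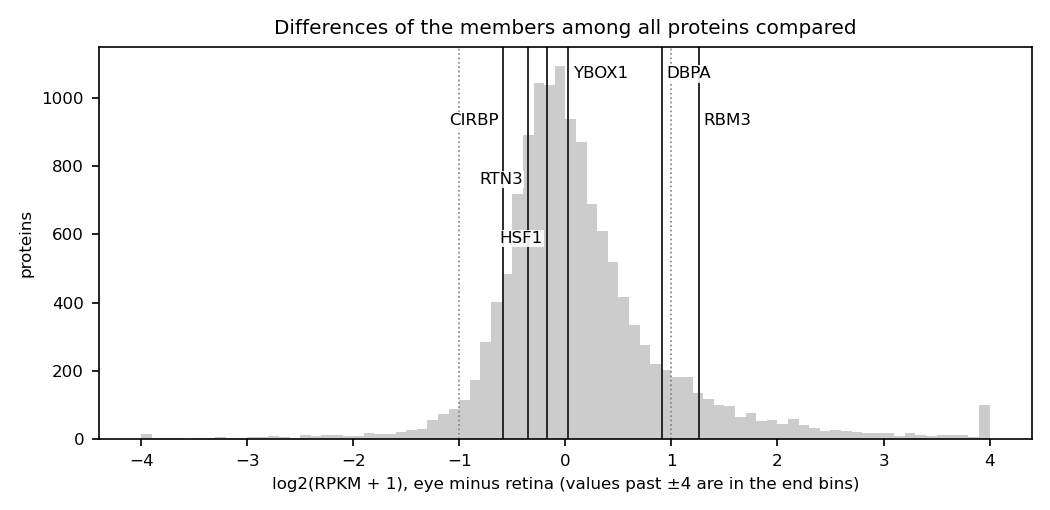
The histogram counts the 13383 proteins by log2(RPKM + 1) of eye minus retina, and vertical lines mark the members and DBPA, the older name of YBOX3. Dotted lines mark 2-fold. CIRBP at -0.59, RTN3 at -0.36, HSF1 at -0.18 and YBOX1 at 0.029 lie in the bulk of the histogram, DBPA at 0.91 lies just inside the upper mark and RBM3 at 1.26 just outside it.

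RTN3, the reticulon whose translation RBM3 promotes in mouse brain, was lower in eye. Its 4 eye transcripts stood at 97.3 RPKM (2167 bases), 90.3 RPKM (2305 bases), 56.2 RPKM (258 bases) and 45.9 RPKM (4332 bases). Its 6 retina transcripts stood at 125, 118, 116, 110 and 103 RPKM and, for the longest of 4483 bases, at 62.9 RPKM. All 4 eye transcripts lay below 5 of the 6 retina transcripts.

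The RTN3 difference by the highest transcript was -0.36, with a counting interval of -0.37 to -0.34. The 2 alignments shared by both tables, over 189 and 195 residues of the orangutan entry, differed by -0.27 and -0.28. The longest transcript of each tissue aligned over 976 residues of the human entry, against 189 to 197 residues for the transcripts of 1982 to 2671 bases. These longest transcripts stood at 45.9 RPKM in eye and 62.9 RPKM in retina, a difference of -0.45. Thus both the shorter and the longer alignments of RTN3 were lower in eye, and none of these differences reached 2-fold. Transcripts summed gave -1.13, with 4 transcripts in eye and 6 in retina.

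HSF1 had the lowest level of the members in both tissues by the highest transcript. Its highest transcript was at 25.8 RPKM in eye (2161 bases) and 29.3 RPKM in retina (895 bases), a difference of -0.18 with a counting interval of -0.21 to -0.14. The 5 eye transcripts had a median of 12 RPKM and a lowest value of 3.56 RPKM. The 11 retina transcripts had a median of 13 RPKM and a lowest value of 5.78 RPKM. The tissues overlapped over nearly the whole range.

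No HSF1 alignment was shared by both tables. The best-matching HSF1 transcripts, of 2161 bases in eye and 1469 bases in retina, stood at 25.8 RPKM in eye and 19.6 RPKM in retina, a difference of 0.38. The longest transcripts stood at 25.8 RPKM in eye and 12 RPKM in retina, a difference of 1.04. The direction for HSF1 therefore changed with the transcript taken.

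**Figure D3:**
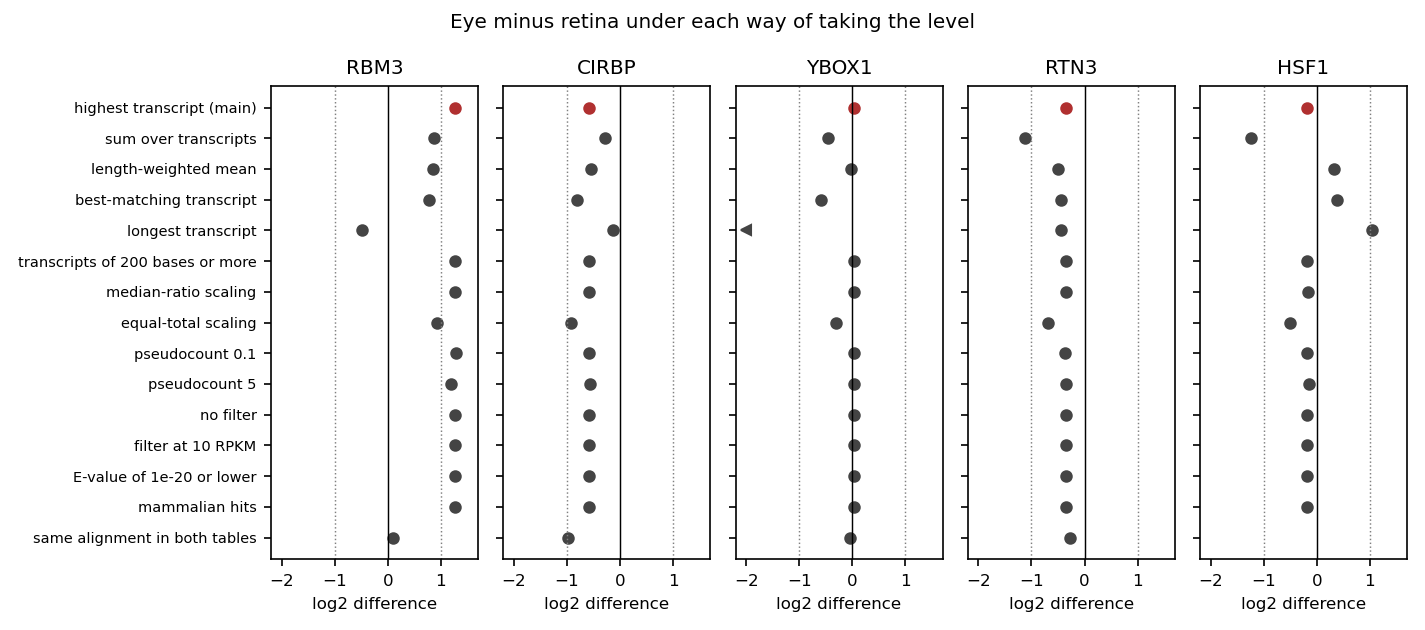
Each panel gives 1 member found under its name, with log2(RPKM + 1) of eye minus retina on the horizontal axis and each way of taking the level on the vertical axis, the one used in the text in red. Dotted lines mark 2-fold, and an arrowhead marks the longest YBOX1 transcripts at -4.59. CIRBP and RTN3 stay left of 0 throughout, RBM3 crosses to -0.49 with the longest transcripts, and HSF1 has no point for shared alignments. The filters on length, level, E-value and hit species repeat the red value in every panel.

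The order of levels by the highest transcript was YBOX1, CIRBP, RTN3, RBM3, HSF1 in both tissues. With the longest transcripts YBOX1, at 1.01 RPKM in eye and 47.6 RPKM in retina, stood below CIRBP and RTN3 in both tissues. In eye RTN3 exceeded RBM3 by a ratio of 1.03 (counting interval 1.00 to 1.05), so these neighbours barely differed beyond counting error. In retina the same ratio was wide, with RTN3 at 125 RPKM and RBM3 at 39.1 RPKM. DBPA stood between CIRBP and RTN3 in eye, where its ratio to RTN3 was 1.01 (0.993 to 1.02), and between RTN3 and RBM3 in retina. Among the 13383 proteins YBOX1 ranked 179th in eye and 120th in retina, CIRBP 379th and 216th, RTN3 715th and 499th, RBM3 736th and 1733rd, and HSF1 2839th and 2390th. All 5 thus stood among the more abundant proteins of both tissues, the lowest being HSF1 at percentile 78.8 in eye and 82.1 in retina.

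Of the 5 members found, 2 were higher in eye by any amount, RBM3 and YBOX1, and 3 were lower. Over all proteins 49.7% were higher in eye. The median of the members was -0.18, against -0.0035 over all proteins. On shared alignments, which cover 6383 proteins with a median of -0.013, 10.6% of proteins were called and none of the 4 members that had such an alignment was. Markers of the retina and of other eye tissues were compared too. Photoreceptor markers summed to 5076 RPKM in eye and 8406 RPKM in retina, and the 6 found of 7 were each lower in eye by the highest transcript. RECO differed by 0.97 with the longest and ARRC by 0.26 with the best-matching transcripts, while the others stayed lower in eye by both measures. Synapse markers summed to 1102 RPKM in eye and 2025 RPKM in retina, all 4 being lower in eye by the highest transcript. CPLX4, however, differed by 0.33 on its shared alignment and by 2.22 with the best-matching transcripts, and SNP25 by 5.41 with the longest. CPLX3 and VGLU1 stayed lower in eye with the longest and the best-matching transcripts. Lens markers summed to 9695 RPKM in eye and 27.1 RPKM in retina, all 5 compared being higher in eye, and the lens channel MIP was found in eye only. Of the 3 muscle markers compared, 2 were higher in eye, while KCRM, a creatine kinase, was lower, at 210 RPKM in eye and 584 RPKM in retina, but differed by 1.02 with the best-matching transcripts. The part of these tissues in the differences of CIRBP, RTN3 or RBM3 was not tested.

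The proteins nearest to RBM3 in the levels of both tissues, out of 13383, were PRS6A, a proteasome subunit, at 94.9 RPKM in eye and 39.9 RPKM in retina, the amyloid precursor A4 at 92.8 RPKM and 41.9 RPKM, and the histone H2AJ at 98.1 RPKM and 42.7 RPKM. The nearest to CIRBP were the chaperone HS90B, at 182 RPKM in eye and 290 RPKM in retina, the cyclin CCNI at 181 RPKM and 272 RPKM, and the calcium-binding protein CALB2 at 180 RPKM and 266 RPKM. Nearness was the Euclidean distance over the log2 levels of the 2 tissues, which many unrelated proteins can share.

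**Figure D4:**
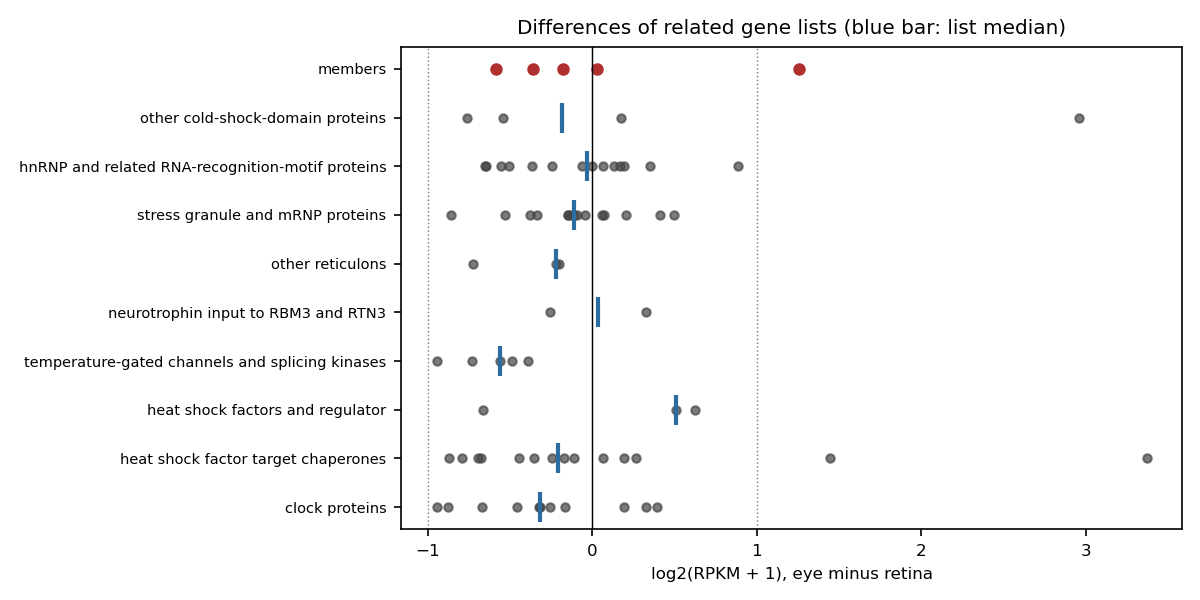
Points give log2(RPKM + 1) of eye minus retina for the 5 members found (red) and for the entries of 9 lists of related genes (grey), with blue bars at list medians and dotted lines at 2-fold. Entries past 2-fold are CHSP1 at 2.96 among cold-shock-domain proteins, and HSPB1 at 3.37 and CH10 at 1.44 among chaperones.

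Relatives of the members by domain were mostly within 2-fold. Of 6 other cold-shock-domain proteins, 4 were compared, 2 of them higher and 2 lower in eye (1 and 3 with equal totals, where YBOX2 passed 2-fold at -1.03), with a median of -0.18. CHSP1, a calcium-regulated protein of this family, was at 85.1 RPKM in eye and 10.1 RPKM in retina, a difference of 2.96 that also held on its shared alignment. CSDC2 was at 49.6 RPKM in eye and 72.7 RPKM in retina, and YBOX2, a germ cell Y-box protein, was at 1.89 RPKM in eye and 3.90 RPKM in retina. LN28A was found in neither table and LN28B was under 1 RPKM in both.

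Of 15 hnRNP and related proteins with an RNA recognition motif, 14 were compared and none was called, with 7 higher and 7 lower in eye and a median of -0.030. Against 31.4% of all proteins, 2 of the 14 were higher in eye with equal totals. These proteins splice, transport and stabilise messenger RNA. HNRPK was at 273 RPKM in eye and 243 RPKM in retina, and ROA2 at 263 RPKM and 239 RPKM. HNRH1, a splicing factor, was at 132 RPKM in eye and 188 RPKM in retina, and EWS, a protein of the FET family, at 82.4 RPKM and 106 RPKM. Some of the group depended on the transcript taken. With the longest transcripts EWS differed by 1.47, HNRPK by 1.93 and RBM10 by 2.03, and RBMX differed by -1.34 on its shared alignment.

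Stress granule and messenger RNA particle proteins, which include partners of the Y-box proteins, had 15 of 16 entries compared and none called. Of these, 5 were higher and 10 lower in eye (2 and 13 with equal totals, where G3BP2 passed 2-fold at -1.18), and the median was -0.11. With equal totals 31.4% of all proteins were higher in eye. The poly(A)-binding protein PABP1 was at 131 RPKM in eye and 113 RPKM in retina, and the helicase DDX3X at 70.9 RPKM and 73.1 RPKM. With the longest transcripts, however, DDX3X differed by -2.29 and FXR1 by 1.42. CAPR1 was at 39.1 RPKM in eye and 42.2 RPKM in retina, and the translation regulator TIAR at 29.9 RPKM and 32.8 RPKM.

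RTN3 has 3 relatives in the reticulon family, none of them called and each lower in eye by the highest transcript. Their median was -0.22, and with equal totals RTN1 passed 2-fold at -1.06. RTN4, known as Nogo, was at 229 RPKM in eye and 263 RPKM in retina, and RTN1, a neuronal reticulon, at 119 RPKM and 198 RPKM. RTN2 was at 21.7 RPKM in eye and 25.4 RPKM in retina. However, RTN2 differed by 0.11 with the longest and with the best-matching transcripts, while RTN1 and RTN4 stayed lower in eye by both measures. The neurotrophin BDNF and its receptor NTRK2, which in mouse brain act upstream of RBM3, were low, at 1.46 RPKM in eye and 1.94 RPKM in retina for BDNF and at 6.85 RPKM and 5.25 RPKM for NTRK2. Reticulon levels were thus far above those of this receptor pair.

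Of 8 temperature-gated channels and CLK splicing kinases, whose activity changes with temperature, 5 were compared. By the highest transcript each of the 5 was lower in eye, the median was -0.56 and none was called. CLK4 differed by 0.14 on its shared alignment, and CLK2 by 0.17 with the longest transcripts. With equal totals CLK4 at -1.04 and TRPV1 at -1.21 were called as lower in eye. CLK3 was at 16.6 RPKM in eye and 25.0 RPKM in retina, CLK1 at 14.5 RPKM and 20.8 RPKM, CLK2 at 13.8 RPKM and 18.4 RPKM, and CLK4 at 8.82 RPKM and 15.3 RPKM. The channel TRPV4, at 2.11 RPKM, and TRPV3, at 1.01 RPKM, were found in eye only, and the cold receptor TRPM8 was found in neither table.

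Among relatives of HSF1, HSBP1, a small protein that binds heat shock factors, was at 102 RPKM in eye and 71.4 RPKM in retina. HSF2 was at 17.0 RPKM in eye and 27.6 RPKM in retina, and HSF4, a factor of lens development, at 7.46 RPKM and 4.47 RPKM. HSF5 was found in neither table. HSF1 itself, at 25.8 RPKM in eye and 29.3 RPKM in retina, stood above HSF2 in both tissues.

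Of 14 chaperones under heat shock factor control, 5 were higher and 9 lower in eye (2 and 12 with equal totals), with a median of -0.21. Of these 2 were called, both higher in eye. With equal totals 4 more were called as lower in eye, HSP70 at -1.12, HS105 at -1.01, DNJA1 at -1.20 and HS90B just past the 2-fold mark. Over all proteins 31.4% were higher in eye with equal totals. DNJA1 differed by 1.35 with the longest transcripts.

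The called chaperones were HSPB1, a small heat shock protein, at 244 RPKM in eye and 22.8 RPKM in retina, and the mitochondrial chaperonin CH10 at 95.8 RPKM and 34.6 RPKM. CH10 differed by 0.54 with the longest transcripts, against 1.44 with the highest. The most abundant chaperones were lower in eye, with HSP7C at 487 RPKM in eye and 577 RPKM in retina and HS90A at 342 RPKM and 467 RPKM. HSP70 was at 230 RPKM in eye and 399 RPKM in retina, and its paralogs may share reads with it. Clock proteins, whose messenger RNA CIRBP binds in mouse fibroblasts, had 3 of 11 higher in eye, a median of -0.32 and none called. With equal totals 2 of the 11 were higher, against 31.4% of all proteins. With equal totals NR1D1 at -1.27 and PER3 at -1.20 were called as lower in eye, and with the best-matching transcripts CRY2 was at -1.03. NR1D1 was at 79.3 RPKM in eye and 153 RPKM in retina, DBP at 131 RPKM and 157 RPKM, CRY2 at 50.1 RPKM and 62.8 RPKM, and NR1D2 at 22.9 RPKM and 28.8 RPKM.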

How the data were processed

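RNA of 2 eye and 3 retina libraries was grouped by the tissue in the titles. The submitters' processing notes name Bowtie without a version, and the assembler, counting mode and genome build are not stated in the sources at hand. Per the file headers the deposited numbers are expression values, and they were taken to be RPKM because value times length was a whole multiple of 1 constant within 0.01 reads for 100% of transcripts. Under that assumption the scaling rests on 264219334 eye reads and 355988270 retina reads. Recovered reads summed to 19.2 and 10.5 times these totals, so reads may be counted on several transcripts. Similarity in percent and the alignment score are BLAST values deposited by the authors, per the file headers.

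Levels per entry name and their differences were computed in Python 3.11.15 with pandas 2.3.3, with a pseudocount of 1 and a filter of 1 RPKM in either tissue. Counting intervals at 95% used the Poisson variance of the logarithm. On simulated data from retina reads, for eye against retina, 100% of 100 proteins changed 2-fold and 98% of 100 changed 4-fold came within 0.2 of the true value, and 0% of 12705 unchanged ones passed 2-fold. Both simulated sides were drawn from the same retina transcripts with counting error only. The simulation leaves out separate assemblies and reads counted on several transcripts. It therefore gives no error rate for the calls above. Members and lists were chosen with earlier results of these data known. Named from each list were up to 4 entries of highest mean level and any past 2-fold, and for RBM3 and CIRBP the 3 nearest proteins; other entries are examples, and 1 entry that this rule selects is not reported here. Summed levels of the corneal, muscle, connective and blood markers were 5250, 947, 732 and 8839 RPKM in eye and 3.34, 586, 96.6 and 256 RPKM in retina. All 6 gene symbols have an entry in RefSeq's mIctTri1.hap1 annotation, used for names only.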

Additional observations from a re-analysis of the deposited data

How the results depend on the processing

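In all, 13 alternatives and 2 more chosen after seeing the data changed how a level is taken, scaled or filtered. The number of members called at 2-fold, 1 by the highest transcript, was 2 with sums and with the longest transcripts, and 0 with length-weighted means, best-matching transcripts, equal totals and shared alignments. The members called with sums were RTN3 at -1.13 and HSF1 at -1.25, and those called with the longest transcripts were YBOX1 at -4.59 and HSF1 at 1.04. The number higher in eye, 2 as reported, was 1 with sums, the longest transcripts, equal totals and shared alignments. RBM3 turned to -0.49 with the longest transcripts. The median of the members, -0.18 as reported, was -0.46 with sums, -0.033 with length-weighted means, -0.45 with best-matching and with the longest transcripts, -0.50 with equal totals and -0.073 with DBPA counted as YBOX3. The cause of these shifts was not tested. Over all proteins the number called, 2059 of 13383, was 4933 of 13696 with sums and 2184 of 13320 with the longest transcripts. It was 1813 of 13275 with length-weighted means, 2044 of 13273 with best-matching transcripts and 2268 of 13475 with equal totals. Pseudocount 5 gave 1080 of 13383, the filter at 10 RPKM 1278 of 7190 and shared alignments 675 of 6383. With so few members, the counts of called members cannot be set apart from these shares. No paired analysis was possible because each tissue has 1 pooled value per transcript, and for the same reason no library could be left out. The highest transcripts of the members found rest on at least 8551 recovered reads, though reads may be counted on several transcripts. Whether depth limits the members was not tested, and library-to-library spread is unknown.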

Other observations

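Other proteins named RBM, a loose group that shares an RNA recognition motif with RBM3, were looked at after the values had been seen. Apart from RBM3, 34 were compared, of which 13 were higher and 21 lower in eye (6 and 28 with equal totals), with a median of -0.12. With equal totals 31.4% of all proteins were higher in eye. Of the 34, 4 or 11.8% were called higher in eye and 1 lower, against 11.8% and 3.6% over all proteins, so these counts are near the background. RBM38, which binds messenger RNA of the cell cycle inhibitor p21, was at 14.9 RPKM in eye and 1.96 RPKM in retina. RBM20, a splicing regulator of titin in striated muscle, was at 5.44 RPKM in eye and 0.372 RPKM in retina. RBM47, a cofactor of apolipoprotein B RNA editing, was at 5.28 RPKM in eye and 0.601 RPKM in retina, and RBM24, a splicing factor of muscle, at 4.59 RPKM in eye and 0.982 RPKM in retina. These 4 were at least 2-fold higher in eye also with the longest and the best-matching transcripts.

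By the highest transcript as deposited RBM4B was the single protein of this group called lower in eye. It stood at 23.7 RPKM in eye and 146 RPKM in retina, a difference of -2.57. The RBM4B difference was -3.11 on shared alignments and 0.38 with the longest transcripts. With the added 1, RBM40 stayed uncalled at -0.87, at 2.93 RPKM in eye and 6.16 RPKM in retina. RBM43, at 3.80 RPKM in eye and 1.79 RPKM in retina, stayed uncalled at 0.78. With equal totals RBM40 at -1.16 and RBM12 at -1.17 passed 2-fold lower in eye as well, and so did RBMX at -1.34 on shared alignments. RBM39, at 72.3 RPKM in eye and 82.4 RPKM in retina, and RBM8A, a core protein of the exon junction complex at 70.5 RPKM in eye and 58.3 RPKM in retina, were the most abundant after RBM3 in eye. With the longest transcripts RBM8A differed by 2.58 and RBM10 by 2.03.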
